A study of Mus musculus with 8 samples.

Results

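Repeated peaks were found at 277 regions outside protein-coding genes in chromatin immunoprecipitation followed by sequencing (ChIP-seq) of APOBEC2 in differentiating C2C12 cells. Peaks of 6 libraries on chromosomes 1 to 19, X and Y that shared 1 bp or more were joined, which gave 5567 regions. A region was kept when at least 2 libraries, including at least 1 of 34 h, had a peak in it, when it touched no protein-coding gene, and when it lay more than 1 kb from the start or end of any such gene. Regions with peaks in all 6 libraries, and regions with peaks in all 3 libraries of 34 h but none of 14 h, were set aside. Of 1160 merged regions outside protein-coding genes, 277 met the library condition (23.9%), against 28.9% of all merged regions. Gene-boundary regions (within 1 kb of a start or end) met it in 33.6% and inside-gene regions (in a gene, more than 1 kb from its ends) in 22.5%. Fold is the authors' own value, their peak caller's enrichment at the summit of a peak relative to its local background, and a region's mean fold is taken over the libraries with a peak. The choice used the peak calls, so which libraries hold a region is given as a description, with no test. Just past the distance limit lay regions on chromosome 1 (86525296 to 86525524, 1033 bp from a boundary, mean fold 5.26), chromosome 6 (1049 bp, fold 6.33) and chromosome 8 (1065 bp, fold 6.87). Just short of it lay regions on chromosome 10 (921 bp, fold 6.48), chromosome 5 (907 bp, fold 7.14) and chromosome 11 (823 bp, fold 5.23).

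C2C12 cells are mouse myoblasts, which leave the cell cycle and form myotubes in low serum. Differentiation was started with 2% horse serum. At 34 h 3 libraries were pulled down with a rabbit polyclonal APOBEC2 antibody (IP) and 1 was input, and 14 h had as many of each. Titles and characteristics of the samples give 14 h, whereas the growth protocol names 24 h as the earlier harvest, so that time is uncertain. Neither an APOBEC2-deficient control nor a control antibody enters these data. Separate cultures are not stated in the labels, so a p-value here speaks only of how these libraries scatter, which can be technical. The peak lists had 2209, 5025 and 1068 entries for 34 h and 768, 1327 and 797 for 14 h. Per library, the median count at a summit was 19 to 24 fragments.

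APOBEC2 is a muscle-enriched relative of the deaminases AID and APOBEC1. Much of a mammalian genome outside protein-coding genes is transcribed. Long non-coding RNAs (lncRNAs) often start at promoters that resemble those of protein-coding genes, and several of them are hosts of small nucleolar RNAs (snoRNAs) or microRNAs. Transfer RNA genes are short and are transcribed by RNA polymerase III. Mouse centromeres lie at the end of each chromosome, beside satellite repeats that the assembly represents only in part.

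Of the 277 regions, 104 (37.5%) lay within 1 kb of a gene record of another type in the RefSeq gene table of GRCm38.p6, which shares its primary chromosomes with mm10. A lncRNA was the record of 90 regions, a tRNA gene of 8, a snoRNA gene of 4, a microRNA and a small nuclear RNA gene of 3 each, and a pseudogene or transcribed pseudogene of 6 and 4, and some regions lay at several. With each region placed once, 22 touched a lncRNA start window (the 250 bases before and the 50 after an annotated start), 13 others lay at a short RNA gene, 61 within 1 kb of a lncRNA but not at its start, 8 at a pseudogene and 173 at no other record. The start windows of 8 lncRNAs are shown from RefSeq (GRCm38.p6), because these starts had peaks in at least 3 libraries and carry the sequence features described next. Capitals mark matches on either strand to TTTGAA (the CHR element of cell cycle promoters), TTCCCGCC or TTGGCGC (E2F), GGGCGG (GC box) and CCAAT (NF-Y). Kif16bos (chr2:142902715-142903014, plus strand), Snhg8 (chr3:123508287-123508586, minus strand) and Gm13421 (chr2:27540176-27540475, plus strand) hold GGCGGGAA, the reverse of the first E2F form, which overlaps a GC box in Kif16bos and Snhg8.
Kif16bos: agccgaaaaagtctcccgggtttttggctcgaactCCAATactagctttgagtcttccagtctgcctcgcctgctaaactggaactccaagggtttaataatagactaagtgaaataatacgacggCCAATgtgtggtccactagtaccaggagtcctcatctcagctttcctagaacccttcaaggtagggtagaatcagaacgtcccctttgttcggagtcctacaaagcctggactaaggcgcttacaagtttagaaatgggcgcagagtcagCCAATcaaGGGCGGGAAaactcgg
Snhg8: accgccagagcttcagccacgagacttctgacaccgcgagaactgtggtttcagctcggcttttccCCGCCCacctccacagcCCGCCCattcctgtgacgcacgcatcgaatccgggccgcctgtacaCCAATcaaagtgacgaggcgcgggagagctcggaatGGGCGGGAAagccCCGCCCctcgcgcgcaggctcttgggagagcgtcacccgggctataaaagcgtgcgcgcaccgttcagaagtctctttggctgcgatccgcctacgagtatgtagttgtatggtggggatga
Gm13421: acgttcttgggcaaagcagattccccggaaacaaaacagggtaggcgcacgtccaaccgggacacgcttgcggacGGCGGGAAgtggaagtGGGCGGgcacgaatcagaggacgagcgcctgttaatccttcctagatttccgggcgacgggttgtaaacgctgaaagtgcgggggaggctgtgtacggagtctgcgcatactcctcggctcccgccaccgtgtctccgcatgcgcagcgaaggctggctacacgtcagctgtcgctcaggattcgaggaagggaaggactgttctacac

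The windows of AI506816 (chr5:23712618-23712917, minus strand) and 2700038G22Rik (chr5:23850347-23850646, plus strand) are shown because they are near copies. Their starts lie 137930 bp apart on opposite strands, and 257 of 304 aligned columns were identical (84.5%). Both hold GGCGGGAA, followed by a GC box, and a further GC box close to the start.
AI506816: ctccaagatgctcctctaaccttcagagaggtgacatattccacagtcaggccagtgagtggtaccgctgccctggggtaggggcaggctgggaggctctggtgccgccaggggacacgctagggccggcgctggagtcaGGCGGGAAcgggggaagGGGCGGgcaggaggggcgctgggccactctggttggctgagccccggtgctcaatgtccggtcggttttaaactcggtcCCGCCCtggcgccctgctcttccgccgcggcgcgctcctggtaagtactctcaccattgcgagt
2700038G22Rik: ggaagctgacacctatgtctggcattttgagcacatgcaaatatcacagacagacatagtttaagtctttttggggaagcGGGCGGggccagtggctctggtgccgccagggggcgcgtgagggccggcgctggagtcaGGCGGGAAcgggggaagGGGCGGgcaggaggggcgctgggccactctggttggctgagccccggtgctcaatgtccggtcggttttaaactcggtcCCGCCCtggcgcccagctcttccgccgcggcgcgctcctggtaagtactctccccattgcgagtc

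A further group of copies lay on chromosome 9. The windows of Gm26567 (chr9:88599390-88599689, plus strand) and 9330159M07Rik (chr9:88858752-88859051, minus strand) were identical in 281 of 293 columns (95.9%), with the second read in reverse. That of Snhg5 (chr9:88522848-88523147, minus strand) matched 9330159M07Rik in 207 of 276 columns (75.0%). All 3 hold CCAAT and a run of overlapping GC boxes.
Gm26567: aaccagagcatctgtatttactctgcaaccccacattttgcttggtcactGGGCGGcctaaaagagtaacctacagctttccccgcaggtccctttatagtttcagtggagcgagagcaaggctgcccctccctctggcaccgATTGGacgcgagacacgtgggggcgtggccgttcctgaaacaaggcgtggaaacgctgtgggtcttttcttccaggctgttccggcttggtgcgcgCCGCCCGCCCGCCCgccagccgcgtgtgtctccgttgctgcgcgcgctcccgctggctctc
9330159M07Rik: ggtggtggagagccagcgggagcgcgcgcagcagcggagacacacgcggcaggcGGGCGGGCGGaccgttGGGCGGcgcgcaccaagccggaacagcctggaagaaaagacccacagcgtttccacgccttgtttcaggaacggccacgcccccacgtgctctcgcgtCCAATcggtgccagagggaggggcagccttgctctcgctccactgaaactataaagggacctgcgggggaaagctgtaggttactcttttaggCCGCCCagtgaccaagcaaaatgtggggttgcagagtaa
Snhg5: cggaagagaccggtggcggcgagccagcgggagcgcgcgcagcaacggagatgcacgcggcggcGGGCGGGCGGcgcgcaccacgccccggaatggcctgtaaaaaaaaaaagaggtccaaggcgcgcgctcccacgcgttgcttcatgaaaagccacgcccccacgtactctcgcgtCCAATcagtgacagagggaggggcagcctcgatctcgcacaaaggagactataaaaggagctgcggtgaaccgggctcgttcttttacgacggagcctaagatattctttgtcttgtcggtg

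Over 397 pairs of windows of different genes that share no genome bases, 8 aligned with a score of at least 100, and all 8 were among these 2 groups. Reads from near copies can be placed at either of them, the handling of such reads is not given in the sources used here, and the values at these loci are therefore uncertain.

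Among the lncRNA starts, Kif16bos, which runs opposite to the kinesin gene Kif16b, had the highest fold (chromosome 2, 142902860 to 142903232). The fold was 5.02 and 7.98 in replicates 1 and 2 of 34 h, and 6.51, 16.2 and 10.1 in the 3 libraries of 14 h, with a mean of 9.16 ± 4.37 (SD, n = 5). Replicate 3 of 34 h had no peak there, and the values of the 2 times overlapped. The summit lay 43 bp downstream of the start.

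Snhg5, a snoRNA host gene, had a peak in every library except replicate 3 of 14 h (chromosome 9, 88522862 to 88523351). The fold was 7.84, 10.97 and 7.73 at 34 h and 7.77 and 10.6 at 14 h, so the times overlapped (8.98 ± 1.65, SD, n = 5). Its median summit lay 270 bp upstream of the start, just beyond the printed window. The copies Gm26567 and 9330159M07Rik had peaks in the same 4 libraries. Gm26567 had folds of 5.37 and 4.83 in replicates 1 and 2 of 34 h and of 9.20 and 9.25 in replicates 2 and 3 of 14 h. At 9330159M07Rik, which shares its region with the divergent Gm26611, the folds were 4.37 and 5.18 at 34 h and 8.56 and 7.36 at 14 h. At both copies each value of 34 h was below each value of 14 h. The copies can share reads, so they are not separate observations. The median fold over all peaks of a list differed the same way. It was 5.92, 5.72 and 6.04 in the libraries of 34 h and 8.11, 8.00 and 8.48 in those of 14 h. Raw folds were not tested between times, because the lists end at different significance levels.

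The related starts on chromosome 5 differed in the libraries that held them. The region of 2700038G22Rik had folds of 7.84 and 7.59 at 34 h and of 8.44 and 7.37 at 14 h, a narrow spread (7.81 ± 0.460, SD, n = 4). That of AI506816 had 5.03 and 5.71 at 34 h and 6.60 and 7.78 at 14 h, in partly different replicates (6.28 ± 1.19, SD, n = 4). Summits stood 6 and 2 bp downstream of the starts.

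Snhg8, a snoRNA host gene, had folds of 5.68 and 5.18 in replicates 1 and 2 of 34 h and of 7.51 in replicate 2 of 14 h. A second region upstream of the Snhg8 start, within 1 kb of Snora24 (chromosome 3, 123508627 to 123508943), had peaks only in replicates 1 and 2 of 34 h (4.68 and 5.76). At 2410006H16Rik, beside Snord49a and Snord49b, the fold was 5.69 in replicate 2 of 34 h, and 10.3 and 5.59 in replicates 2 and 3 of 14 h. Gm13421, close to the gene of the chromatin adaptor Wdr5, leaned the other way, with 9.92, 8.93 and 5.04 at 34 h against 5.34 in replicate 2 of 14 h.

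**Figure D1:**
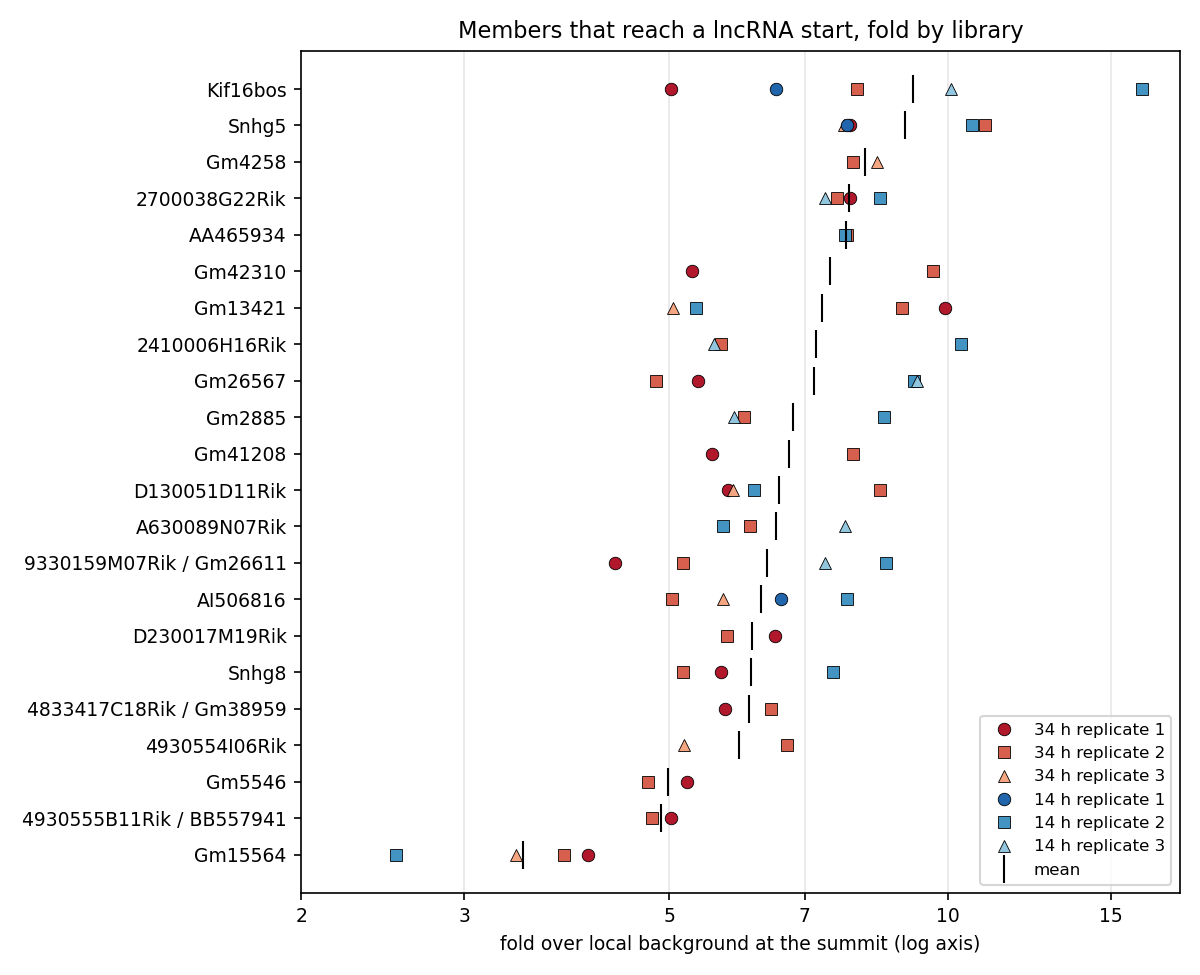
Fold over local background (log axis) of the 22 regions that reach a lncRNA start, named by lncRNA and ordered by the mean over libraries with a peak (bar). Each point is a library, with 34 h in red and 14 h in blue; Kif16bos is highest at a mean of 9.16 and Gm15564 lowest at 3.47, and replicate 2 of 34 h is present in all 22.

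Of the 22 regions at lncRNA starts, 14 (63.6%) had a peak in at least 1 library of 14 h, compared with 59 of all 277 regions (21.3%) and 43.1% of all regions that passed the library condition wherever they lay. Within 1 kb of a lncRNA but not at a start the share was 4 of 61 (6.56%), and at no record 34 of 173 (19.7%). The groups were formed after the values had been seen, and the shares are descriptions. The median summit of a region lay 49 bp from the nearest touched start, and 15 of 22 lay within 100 bp of it. Of the 22, 12 lay upstream of the start.

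The 29 start windows touched, of 25 lncRNAs, were richer in GC and in CpG than lncRNA starts at large. Their median GC content was 57.7%, against 48.3% for all 11588 lncRNA windows, 61.8% for the windows touched by gene-boundary regions under the same library condition and 52.7% for all 32851 windows. The median number of CpG dinucleotides was 18, against 4, 24 and 7 in the same order. A GC box (GGGCGG) was found in 18 of the 29 (62.1%), against 16.3% of lncRNA windows, 75.8% of boundary windows and 35.7% of all windows. CCAAT was found in 16 (55.2%), against 36.0%, 55.8% and 37.4%. TTCCCGCC was found in 5 (17.2%), against 0.984%, 9.81% and 2.19%, and TTGGCGC in 4 (13.8%), against 1.29%, 8.11% and 2.45%.

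TTTGAA was found in 3 of these windows (10.3%), a lower share than the 21.4% of lncRNA windows and 17.9% of all windows. In the windows touched by gene-boundary regions under the same library condition the share was 13.7%, near that of the lncRNA starts. In the windows touched by regions of all 6 libraries it was 31.0%. The octamer ATTTGCAT was in 4 windows (13.8%), against 1.74% of all windows, and the E-box CAGCTG and the AP-1 form TGANTCA in 4 each (13.8%), against 16.3% and 7.81% of all. No match to the internal B box of tRNA genes, the NRF1 motif or a CTCF core motif was found, and 0.122%, 0.971% and 0.813% of all windows hold them. Windows can overlap, both of the same gene and of neighbouring genes. The TTGGCGC of BB557941 and of 4930555B11Rik is a single genomic site counted in both windows, and 2 of the 5 windows with TTCCCGCC are the near copies AI506816 and 2700038G22Rik. The 16 windows with CCAAT belong to 12 genes, as windows of Gm4258, of Gm15564 and of 9330159M07Rik share a site. The site of 9330159M07Rik is also that of Gm26611, so it is counted for both genes. The 18 windows with a GC box belong to 17 genes and include those of both groups of near copies. The 3 windows with TTTGAA belong to 2 genes, with a single site in both windows of Gm15564, a region of high background. Each motif was searched on both strands. A match describes letters in the window and not a bound site.

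Of the 13 regions placed at short RNA genes, 1 had peaks in 3 or more libraries, against 13 of the 22 at lncRNA starts and 48 of all 277. A region at both was placed at the lncRNA start, which affects this contrast. Among those were Snhg8 and 2410006H16Rik (3 libraries each), Gm13421 (4 libraries), and D230017M19Rik, 4833417C18Rik and BB557941 (2 libraries each). The region beside Mir206, the muscle microRNA gene, lay inside the record of Lincmd1, a lncRNA of muscle differentiation that hosts it in mouse (chromosome 1, 20678021 to 20678265). It was 745 bp upstream of the hairpin and had a peak in replicates 1 and 2 of 34 h (fold 5.96 and 6.23) and in no library of 14 h. A region 487 bp upstream of Mirlet7i, of the let-7 family (chromosome 10, 122986211 to 122986605), had a fold of 7.34 in replicate 2 of 34 h and of 6.06 in replicate 2 of 14 h. Both rest on 2 libraries, and a site without a called peak is not shown to be unbound. Their mature RNAs are given from RefSeq, with the seed (bases 2 to 8) in capitals, and the seeds differ.
mmu-miR-206-3p: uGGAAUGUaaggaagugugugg
mmu-let-7i-5p: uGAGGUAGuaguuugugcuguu

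The region over Mir6236 (chromosome 9, 110281285 to 110281487) was the only one of the 13 placed at short RNA genes with 5 libraries. Its folds were 3.99, 3.90 and 4.15 at 34 h and 4.17 and 4.80 at 14 h, low and alike in all libraries that held it, over a local background of 6.77 fragments. Rnu11, the gene of the U11 RNA of the minor spliceosome, had 6.91 and 4.94 in replicates 2 and 3 of 34 h. Rn7s2, a gene of the RNA of the signal recognition particle, had 5.73 and 4.64 in the same libraries. The 8 regions within 1 kb of a tRNA gene had mean folds from 4.88 to 7.07, led by that at n-THgtg3 and n-THgtg5 on chromosome 2 (7.69 and 6.46 in replicates 2 and 3 of 34 h). A peak at 14 h was present in 1 of the 8, beside n-TPagg2 and n-TPcgg2 on chromosome 1. Replicates 1 and 2 of 34 h alone held 6 of the 8. Over all 277 regions these shares were 21.3% and 70.0%, so both counts are near that background. The RNAs of these families are made from many similar gene copies, and reads could be shared between copies.

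Among regions within 1 kb of a lncRNA record but not at a start, that of Dleu2 had the highest mean fold (chromosome 14, 61648558 to 61648959). This lncRNA hosts the miR-15a and miR-16-1 genes. The fold was 4.96 in replicate 2 of 34 h, against 13.3 and 9.82 in replicates 2 and 3 of 14 h. The next were 1700012D14Rik, with 9.09 and 8.28 in replicates 1 and 2 of 34 h, and Platr22, where the same libraries gave 4.24 and 12.9. Pseudogenes were led by Gm18604 on chromosome 17, with 11.1, 9.67 and 5.32 at 34 h and 6.27 in replicate 2 of 14 h. Of the regions within 1 kb of a lncRNA record but not at a start, 55 of 61 (90.2%) were held by replicates 1 and 2 of 34 h alone. Over all 277 regions this share was 70.0%, and over inside-gene regions under the same library condition 70.6%. The groups by record were formed after the values had been seen. The median of mean folds was 6.05 within 1 kb of a lncRNA but not at a start, 6.65 at starts and 5.86 at no record.

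Regions with no other gene record included the highest fold of the whole set. On chromosome 8 (3754295 to 3754637), 5311 bp from the C-type lectin gene Cd209a, replicates 2 and 3 of 34 h had folds of 14.8 and 16.1. No other library had a peak there. The strongest with 5 libraries lay on chromosome 2 (174561845 to 174562126), 36556 bp from the zinc finger gene Zfp831. It had 8.62 and 12.5 in replicates 1 and 2 of 34 h and 10.0, 11.1 and 8.03 at 14 h, so the times overlapped (10.1 ± 1.83, SD, n = 5). Replicate 3 of 34 h again had no peak.

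Several of these regions lay a short way from a protein-coding gene. The region on chromosome 6 (134927246 to 134927646), 1721 bp from Cdkn1b, the gene of the cell cycle inhibitor p27, had folds of 8.19 and 7.67 in replicates 1 and 2 of 34 h and of 6.76 and 9.99 in replicates 1 and 2 of 14 h. On chromosome 8 (84663917 to 84664191), 1065 bp from the immediate early gene Ier2, the fold was 5.25 in replicate 2 of 34 h, against 5.52, 9.63 and 7.09 at 14 h. The region on chromosome 7 (16052777 to 16053182), 4631 bp from the chromatin remodelling gene Bicra, had 7.20, 14.1 and 6.38 at 34 h and 5.23 and 7.05 at 14 h. Near Nr4a3, an orphan nuclear receptor gene, replicates 1 and 2 of 34 h had 7.66 and 9.18 at 1419 bp. A run of 4 regions lay on chromosome 1 (86442504 to 86525524), with mean folds from 5.11 to 6.43, and 3 of them had a peak at 14 h. Tex44 was the nearest gene of 2 and Ptma, which encodes prothymosin alpha, of the other two.

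The nearest protein-coding gene lay within 10 kb of 66 regions (23.8%), within 50 kb of 154 (55.6%) and beyond 100 kb of 78 (28.2%). The farthest was on chromosome 15 (62903060 to 62903417), 872554 bp from Gsdmc, with folds of 5.65 and 8.20 in replicates 1 and 2 of 34 h. The next were on chromosome 8, 789094 bp from Efnb2, and chromosome 14, 736061 bp from Diaph3, each with the same 2 libraries. No region had as its nearest gene, within 50 kb, a member of the lists of 48 cell cycle genes, 44 replication-dependent histone genes, 47 muscle structure genes, 25 myogenic regulators or 34 TGF-beta and BMP signalling genes. Over all 21883 protein-coding genes the share with such a region was 0.676%, so a count of 0 is near that background. The cell cycle list left out cyclin D and the CDK inhibitors, and besides Cdkn1b some regions did have such a nearest gene. Those named next were picked after the values had been seen, among 148 nearest genes within 50 kb. No share of a full list stands beside them. Ccnd1, the cyclin D1 gene, lay 1595 bp from a region with a fold of 5.19 in replicate 3 of 34 h and of 6.23 in replicate 2 of 14 h. Cdkn1a, which encodes the inhibitor p21, lay at 11752 bp and the cell cycle kinase gene Wee1, also not on the list, at 12517 bp. Their regions were held by replicates 1 and 2 of 34 h alone (mean folds 5.15 and 6.75). The region nearest to Cdkn1a also lay within 1 kb of the lncRNA record Trp53cor1. Region lengths ran from 187 bp on chromosome 10 (11492000 to 11492186) to 820 bp on chromosome 9 (3016846 to 3017665), with a median of 330 bp.

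A separate class stood on high local background. In 21 of the 277 regions the median background over libraries was 20 fragments or more, a limit set after the values had been seen, against a median of 2.44 in the other 256. Their folds were low, with a median of mean folds of 2.19, against 6.06 in the rest, while their summits held a median of 141 fragments, against 20.5. Of the 21, 14 lay within 32475 bases near the start of the assembled chromosome 9 (3005015 to 3037489), the nearest protein-coding gene being Alkbh8. This stretch held 36 merged regions in all, of which 17 were in all 6 libraries and 2 in every library of 34 h and none of 14 h. The region of highest background was on chromosome 12 (3109776 to 3110208), with a background of 158 fragments and folds of 1.94, 1.60 and 1.81 at 34 h and 1.59 and 1.33 at 14 h. The others outside chromosome 9 were a further region on chromosome 12, 2 on chromosome 6 and 1 each on chromosomes 1, 15 and 16, the last at the lncRNA Gm15564. Below the limit, 4 regions on chromosomes 1, 8, 17 and 18 had backgrounds from 10.97 to 12.7 fragments, and 12.7 was the highest value below it. Repeats were not annotated here, and their part in these values was not tested.

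These 21 regions made up a large part of the best supported ones. They were 11 of the 20 regions with 5 libraries and 18 of the 48 with at least 3. A peak of 14 h was present in 19 of 21 (90.5%), compared with 40 of the other 256 (15.6%). Replicate 3 of 14 h held 2 of them, while the other libraries held 14 to 21. In the chromosome 9 stretch, the mean fold of each region ran from 1.93 to 2.68.

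**Figure D2:**
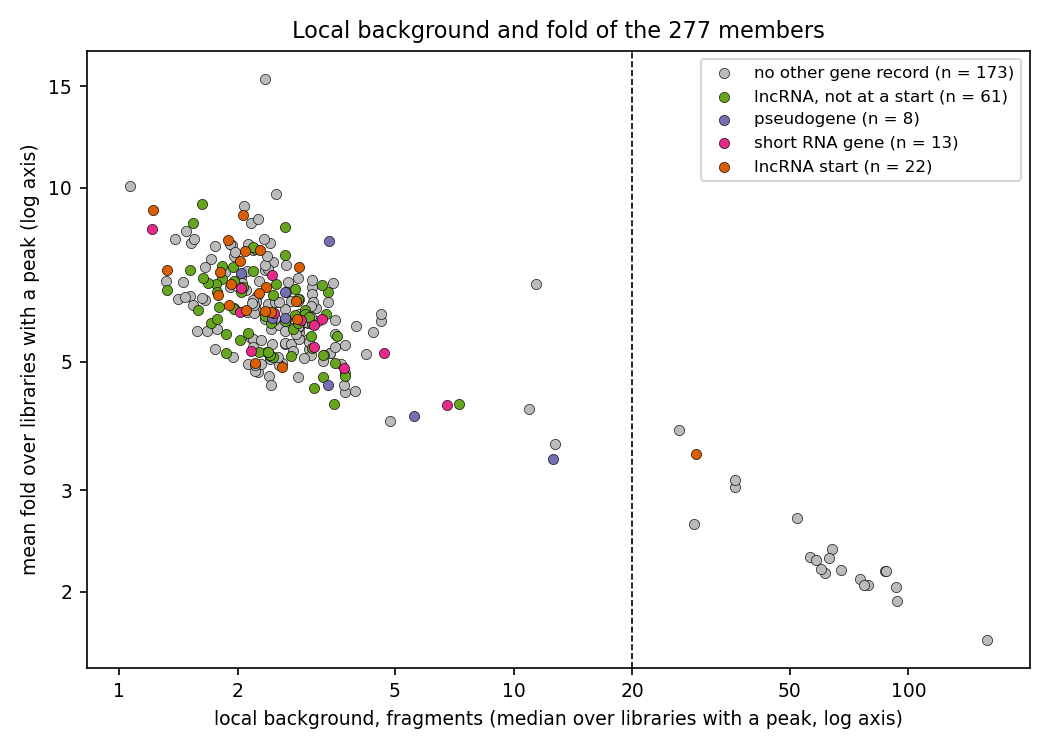
Mean fold of each of the 277 regions against the median local background in fragments, both over the libraries with a peak and on log axes, coloured by the type of gene record within 1 kb. The 21 regions right of the dashed line at 20 fragments have mean folds of 1.65 to 3.80, below most regions on the left, and 20 of them have no other gene record.

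The support of the whole set was uneven between libraries, in part because the rule required a peak at 34 h. Replicate 2 of 34 h, the longest list, held 273 of the 277 (98.6%), replicate 1 held 234 (84.5%) and replicate 3 held 55 (19.9%). The 3 libraries of 14 h held 26, 55 and 19. A total of 194 regions (70.0%) had peaks of replicates 1 and 2 of 34 h and no other, against 39.1% of gene-boundary regions, 70.6% of inside-gene regions and 50.2% of all regions that passed the library condition. A further 23 had peaks only of replicates 2 and 3 of 34 h. A peak of 14 h was present in 59 regions (21.3%), against 54.8% of gene-boundary and 22.6% of inside-gene regions. With the lists limited to the length of the shortest, 66 regions met the rule. Without replicate 1, 2 or 3 of 34 h the number was 57, 43 or 55, where both remaining libraries of that time then counted as all of them and regions they alone shared were set aside.

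**Figure D3:**
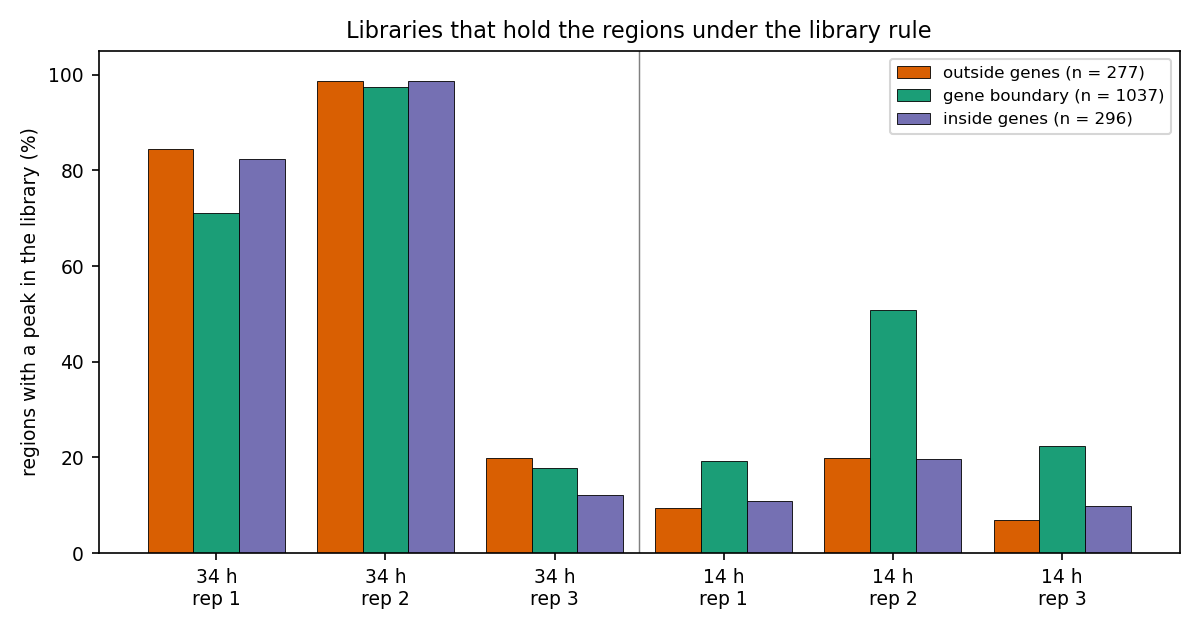
Share of regions with a peak in each library, for the 277 regions outside genes, the 1037 gene-boundary and the 296 inside-gene regions that pass the same library condition (bars from 0, 34 h on the left). Replicates 1 and 2 of 34 h hold most regions of every class, and replicate 2 of 14 h holds 50.8% of gene-boundary regions but 19.9% of those outside genes.

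Whether regions outside genes had lower folds than those elsewhere was asked within each library, with the same library condition for every class. At 34 h the median fold was 5.46, 6.10 and 5.00 outside genes, against 5.85, 6.25 and 5.77 at gene boundaries. At 14 h it was 2.58, 6.38 and 7.09 outside genes, against 7.08, 7.33 and 7.26 at boundaries. The value outside genes was the lower in 6 of 6 libraries, most of all in replicate 1 of 14 h. The mean difference was −0.34 on the log2 scale ± 0.55 (SD of the differences, n = 6, exact two-sided sign-flip permutation test, p = 0.031, the smallest 6 libraries allow). It did not pass after Benjamini-Hochberg adjustment over 4 tests (adjusted permutation p = 0.125). Without the high-background regions the difference was −0.04 (adjusted permutation p = 0.5625). Fold is taken relative to that background, so a limit on background, set after seeing the values, is not independent of the tested value.

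Inside-gene regions had medians of 5.65, 6.04 and 5.40 at 34 h and 6.42, 7.50 and 6.80 at 14 h. The difference of the outside regions from them was −0.27 ± 0.52 on the log2 scale (SD, n = 6, adjusted permutation p = 0.375), lower in 4 of 6 libraries. It was 0.01 without the high-background regions. In replicate 1 of 14 h, 14 of the 26 regions outside genes with a peak were of high background, and leaving out such regions moved the median there to 6.25.

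**Figure D4:**
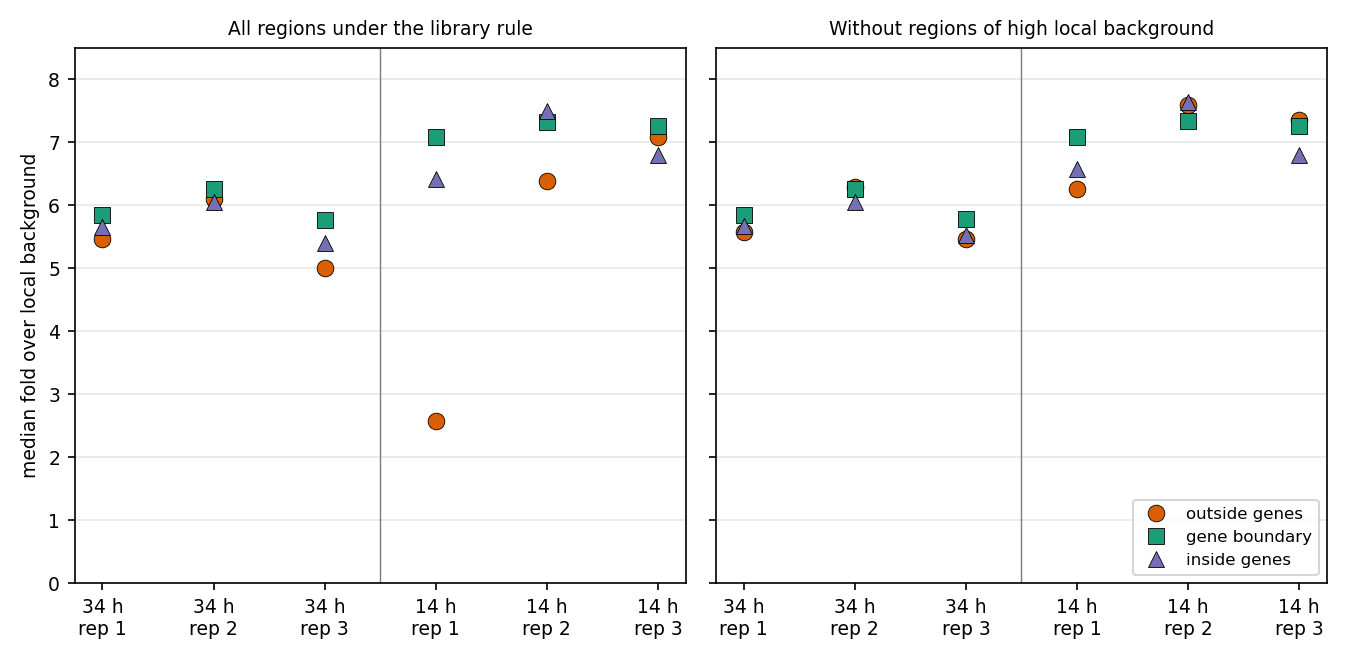
Median fold over local background of regions outside genes, at gene boundaries and inside genes in each library (34 h on the left of each panel), for all regions under the library condition and without those of high local background. The value outside genes in replicate 1 of 14 h is 2.58 on the left and 6.25 on the right and the boundary value there is 7.08 in both.

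A measure that the choice of regions did not use is how often they are found again in a library left out of that choice. Regions were chosen from 5 libraries by the same condition and looked up in the sixth. With a 34 h library left out, regions shared by the other libraries of 34 h alone were set aside. Every region looked up at 34 h therefore had a peak at 14 h, which the 14 h lookups did not require. The test pools lookups of these unlike sets of regions. In replicates 1, 2 and 3 of 34 h, 64.9%, 93.0% and 54.5% of regions outside genes were found, against 57.1%, 93.4% and 24.0% of gene-boundary regions. In the 14 h libraries 8.79%, 13.7% and 7.20% were found outside genes, against 18.9%, 41.7% and 21.7% at boundaries. Each 34 h lookup rests on 43 to 57 regions outside genes, or 25 to 38 without those of high background. Each of 14 h rests on 255 to 273. The mean difference was −2.44 percentage points ± 20.3 (SD, n = 6), below 0 in 4 of 6 libraries, with an adjusted permutation p of 0.75. It turned above 0 without replicate 1, 2 or 3 of 34 h (10.4, 11.1 and 9.66 points) and without replicate 2 of 14 h (1.79 points), where the rule was applied to the libraries that remained.

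Against inside-gene regions the difference was 6.70 percentage points ± 12.4 (SD, n = 6, adjusted permutation p = 0.5). It was above 0 in the 3 libraries of 34 h (14.9, 2.55 and 28.2 points) and below 0 in the 3 of 14 h (−1.17, −2.53 and −1.80 points). Without high-background regions the mean was 0.22 points. Replicates 1, 2 and 3 of 34 h then held 52.6%, 88% and 36.1% of regions outside genes, against 48.4%, 90% and 23.6% inside genes.

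The times were compared over all peaks of each list, which asks whether the share of peaks outside genes differs between the lists of the times. Each time was called against its own input, so differentiation cannot be told apart from differences of input or calling. Peaks outside protein-coding genes by the same distance rule made up 17.8%, 21.6% and 18.3% of the peaks of the 3 libraries of 34 h and 13.2%, 10.2% and 11.1% of those of 14 h. Exact 95% binomial intervals, which cover counting error only, were 16.2 to 19.4, 20.5 to 22.8 and 16.1 to 20.8 at 34 h and 10.9 to 15.8, 8.64 to 12.0 and 8.98 to 13.5 at 14 h. The groups did not overlap, and the difference was 7.74 percentage points (19.2 ± 2.09 against 11.5 ± 1.53, SD, n = 3 each). The exact two-sided permutation test gave p = 0.1, the smallest that 3 against 3 libraries allow. Of these outside peaks, 34.5%, 31.8% and 25.9% lay within 1 kb of another gene record at 34 h, against 18.8%, 28.1% and 28.4% at 14 h. That difference, 5.61 points, was within the spread between libraries (exact permutation p = 0.3), and with lists of equal length it was −3.49 points.

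Of the 59 regions with peaks at both times, the mean fold of 34 h was above that of 14 h in 32 (54.2%), and below it in the remainder. The high-background regions had it above in 18 of 19, and the other regions in 14 of 40 (35.0%), while gene-boundary regions had it above in 29.9% and inside-gene regions in 29.9%. At lncRNA starts it was 4 of 14, with medians of 6.06 at 34 h and 7.63 at 14 h. Both times were called against their own input, so fold scales may differ between times, and these counts carry no test.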

How the data were processed

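ChIP-seq peak lists of 6 IP libraries were used, 3 of 34 h and 3 of 14 h after induction. Samples were grouped by title. Inputs entered only through the authors' peak calling. Subread and MACS2, with the build mm10, are named in the submitters' processing notes, and the names of the deposited lists give the input of the same time as control. Versions, the threshold and the treatment of multiply matching reads were not given in the sources used here. All list names carry the tag GFPsh, which the labels do not explain. The authors' fold is the caller's linear ratio at the summit, and the summit offset is in bp. The deposited significance columns hold −log10 p and −log10 q, and a further deposited column an integer score that restates the latter.

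Summit fragments (a whole number) and background follow from a peak's fold and p-value. Both were solved for 100% of 11152 peaks to within 0.001 on the −log10 p scale, and for 100% of 500 simulated peaks. Fragment counts limit the precision of each fold. The lists ended at a lowest −log10 q of 2.03 to 2.49 in replicates 2 and 3 of 34 h, 1.58 in replicate 1 of 34 h, and 1.66 to 2.90 at 14 h.

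The gene table gives positions of 21883 protein-coding genes without strand; starts and strands of lncRNAs came from the RefSeq start windows. With no genome in use, the planned motif search around summits was replaced by one in these windows. Where a region had several peaks of a library, that of highest fold was taken. Tests were exact permutations over libraries, in Python 3.11.15 with SciPy 1.17.1. Settings varied were a −log10 q minimum of 5, lists of equal length, summits within 100 bp, a 5 kb limit, summit positions, set-aside regions kept in, each library left out, a replicate block and, added after seeing the data, leaving out high-background regions. The rule for named regions took those of highest mean fold with at least 3 libraries, those with 5 libraries, the highest of each record type, list neighbours and extremes of length and distance. Regions near Ptma, Nr4a3, Cd209a, Ccnd1, Cdkn1a and Wee1, Rn7s2, Snhg8, copies of other starts and the high-background regions were named after their values were seen. Members and lists were chosen with earlier results of these data known.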

Additional observations from a re-analysis of the deposited data

Results flagged for a closer look

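In replicate 1 of 14 h the difference in median fold stood far from that in the other 5 libraries, at −1.456 on the log2 scale against gene-boundary regions and −1.315 against inside-gene regions. In that library 14 of the 26 regions outside genes with a peak were of high local background; their part in the gap was measured only by leaving them out, which gave −0.18 and −0.07. Chance flags about 1 in 20 such groups.

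Recovery in a library left out, set against inside-gene regions, went opposite ways at the 2 times, with a mean of 15.230 percentage points in the 34 h libraries and −1.834 in those of 14 h. This difference between times was not tested, and the 2 times drew on unlike regions. Every region looked up at 34 h had a peak at 14 h, because regions shared only by the remaining libraries of 34 h were set aside. Without high-background regions the signs did not split by time, as replicate 2 of 34 h held 88% outside against 90% inside genes.

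The lists also held 42 peaks on the mitochondrial chromosome, which no comparison used, with 7, 6 and 16 in the libraries of 34 h and 3, 7 and 3 in those of 14 h and folds from 1.55 to 2.02. No library without the antibody was called, so there is no control level for them.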

How the results depend on the processing

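Of 87 recomputed values, 70 were counted as unchanged. For a test this means the same direction and side of the threshold, and for the number of regions a count of similar size. The 2 shares compared between times could not pass under any setting, since their permutation p could not fall below 0.1. The replicate block keeps their difference by construction. The count of 70 therefore overstates how far the results were tried. The number of regions was 66 with lists of equal length, 238 to 375 under the other settings that keep all libraries, and 43 to 273 with a library left out. The share of peaks outside genes differed by 6.19 to 8.48 points between times under the other settings and by 6.55 to 8.59 with a library left out, all at the smallest permutation p possible. The share at another gene record differed by −3.49 points with lists of equal length and by 2.46 to 8.02 with a library left out. Against gene-boundary regions, the log2 difference in median fold passed with lists of equal length (−1.05) and with the set-aside regions kept in (−1.133), and ranged from −0.681 to −0.096 with a library left out. Against inside-gene regions these were −0.907, −0.899 and −0.606 to −0.034, and the sign turned without high-background regions (0.007). With 5 libraries the smallest permutation p is 0.0625, so no such test could pass. Recovery against gene-boundary regions was 4.218 points with lists of equal length, −12.805 with the set-aside regions kept in, −9.743 without high-background regions and −5.778 to 11.077 with a library left out. Against inside-gene regions it passed with lists of equal length (18.725) and with set-aside regions kept in (4.654), and ranged from 3.025 to 12.104 with a library left out. The cause of these changes was not tested.

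Replicate numbers did not pair the libraries. Deviations of log2 fold over the 428 regions in all 6 libraries correlated at 0.046, 0.26 and 0.082 between same-numbered libraries. Among these, only the libraries numbered 2 passed 0.1. Between unlike-numbered libraries the correlations ran from −0.194 to 0.124. With the replicate block the share of peaks outside genes differed by 7.742 points (exact permutation p = 0.25, the smallest for 3 pairs) and the share at another gene record by 5.611 points (exact permutation p = 0.5). Depth limits what a missing peak means, since summits stood on as few as 10 fragments.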
